A study of Chenopodium quinoa with 9 samples.

Results

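The stable genes of quinoa (Chenopodium quinoa), 100 genes whose level varied least over leaf, stem and root, are described here out of the 54238 genes of the deposited tables. They were chosen by the deposited FPKM values, which relate the reads of a gene to its length and to a size set for each library. Of 3224 genes with at least 20 FPKM in all 9 libraries, the 100 with the lowest coefficient of variation (CV, the sample SD divided by the mean over the 9 libraries) were taken, so the members make up 3.10% of the genes at that minimum. The low spread of the members is therefore their definition and no finding. Messenger RNA came from field plants of the yellow bitter type, harvested in August after sowing in March, with 3 libraries each of leaf, stem and root and no treatment. Each library pooled 10 of 30 plants, and each pool gave leaf, stem and root, so the spread between libraries of an organ is that between pools.

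Genes of steady expression are known for basic cell upkeep, such as protein synthesis and turnover, energy supply and the cytoskeleton, and the steadiest serve as internal references when the level of other transcripts is measured. A stable level in RNA sequencing is always a level relative to the rest of the library, since reads are counted out of a total. Quinoa carries the genomes of both parental species, with near-identical copies of many genes, and reads that fit several copies can be divided among them. No identifier of the tables was found in the table of 58882 RefSeq genes (assembly ASM168347v1) used here, so no function or sequence is given for any member, classes of common reference genes could not be counted among them, and the organ labels were not checked against marker genes.

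Total counts were 17554727 to 22035718 in leaf, 18719390 to 24846346 in stem and 16112021 to 18253046 in root. Stem replicate 1 stood apart from the other libraries. Of the 3224 genes at the minimum, 1545 (47.9%) had their highest value in stem replicate 1, and the next library, leaf replicate 2, held the highest value of 375 (11.6%). Over the sets of genes, values without stem replicate 1 are given beside the organ ratios, the variance between organs and the overlaps. They are also given beside the calls and the choice of members. The other values include that library, as do the ratios, overlaps and shares of variance of single named genes.

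The member of lowest CV was AUR62001503. It was at 35.8, 36.5 and 36.6 FPKM in leaf, 36.4, 35.2 and 38.7 FPKM in stem and 35.9, 36.6 and 39.6 FPKM in root, which gave a mean of 36.8 ± 1.40 FPKM (SD, n = 9) and a CV of 3.80%. The values of the 3 organs overlapped, and the highest library exceeded the lowest 1.12-fold. Its counts ran from 378 to 821 per library, and counting error alone would give a CV of 4.31%, more than was observed. At this depth the gene's spread was thus not separable from counting error, which is a lower limit because duplicate reads were not told apart.

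AUR62043784 followed with a CV of 5.02%, at 30.0, 28.6 and 29.8 FPKM in leaf, 29.7, 32.0 and 29.9 FPKM in stem and 28.7, 28.2 and 26.7 FPKM in root. Leaf and root overlapped in this gene by 1 library, whereas every stem library lay above every root library. AUR62013023 (CV 5.74%) was at 24.0, 24.3 and 22.3 FPKM in leaf, 26.2, 22.4 and 23.2 FPKM in stem and 21.9, 24.6 and 23.2 FPKM in root. Its organs overlapped, and its mean of 23.6 FPKM was among the 3 lowest of the members.

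AUR62006614 (CV 6.05%) was at 36.8, 39.2 and 40.8 FPKM in leaf, 36.4, 35.3 and 33.8 FPKM in stem and 35.2, 38.6 and 35.7 FPKM in root, with leaf above stem in every library. AUR62006472 (CV 6.29%) was at 31.3, 33.9 and 31.8 FPKM in leaf, 37.2, 33.7 and 31.3 FPKM in stem and 34.2, 33.6 and 36.5 FPKM in root, where all organs overlapped. The only gene among the 8 of lowest CV with a mean over 50 FPKM was AUR62016081. It was at 93.5, 85.1 and 103.0 FPKM in leaf, 94.1, 91.3 and 92.0 FPKM in stem and 85.9, 100.8 and 93.6 FPKM in root (CV 6.33%).

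Stem replicate 1 was the highest library of AUR62011946 (CV 6.37%), at 42.7 FPKM against 36.2 and 34.0 FPKM in the other stem libraries, 36.2, 37.0 and 38.2 FPKM in leaf and 36.7, 36.5 and 38.0 FPKM in root. In AUR62006971 (CV 6.61%) it was the lowest, at 22.9 FPKM against 24.5 and 24.6 FPKM in the other stem libraries, 26.1, 29.0 and 25.2 FPKM in leaf and 24.7, 24.3 and 25.3 FPKM in root. The organs overlapped in AUR62011946, and leaf lay above stem in every library of AUR62006971.

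The members were of moderate level. Their mean FPKM ran from 22.6 to 214 with a median of 39.9, against a median of 63.7 for all 3224 genes at the minimum. Only 8 members had a mean above 100 FPKM (8%), against 1047 of the 3224 genes (32.5%). When the 3224 genes were divided into 4 groups of 806 by mean level, 51 members fell in the lowest group, 27 in the next, 18 in the one after and 4 in the highest. The median CV of these groups, from low to high level, was 22.0%, 31.1%, 40.6% and 50.1%. The minimum takes part in this order by construction, since a gene whose mean is little above 20 FPKM passes in all 9 libraries only if it varies little. With a minimum of 50 FPKM, 26 of the members were among the 100 genes of lowest CV, and those 100 genes had a median CV of 13.4%. A higher minimum only removes genes, so a member that reaches it in all 9 libraries stays among the 100 by construction. The 26 are thus the members with at least 50 FPKM in all 9 libraries, and nothing else is read from that number.

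The highest member was AUR62022603. It was at 227, 234 and 196 FPKM in leaf, 216, 207 and 232 FPKM in stem and 190, 200 and 229 FPKM in root (CV 7.90%), with overlapping organs. AUR62004397 came next, at 170, 185 and 146 FPKM in leaf, 176, 175 and 191 FPKM in stem and 186, 176 and 191 FPKM in root (CV 7.93%). Both genes had a length of 1056 bp, and they were the only members to share a length. How often other genes at the minimum share a length was not counted, so nothing is read from the shared length. Whether reads were shared between the 2 genes was not tested.

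AUR62021127 was at 130, 148 and 127 FPKM in leaf, 157, 146 and 131 FPKM in stem and 153, 168 and 166 FPKM in root. Every leaf library of this gene lay below every root library. AUR62015530 showed the same order, at 137, 123 and 129 FPKM in leaf, 129, 130 and 119 FPKM in stem and 150, 141 and 157 FPKM in root, with stem below root in every library too. AUR62021095, the fifth by level, was at 140, 133 and 134 FPKM in leaf, 137, 112 and 125 FPKM in stem and 116, 142 and 141 FPKM in root, where the organs overlapped.

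**Figure D1:**
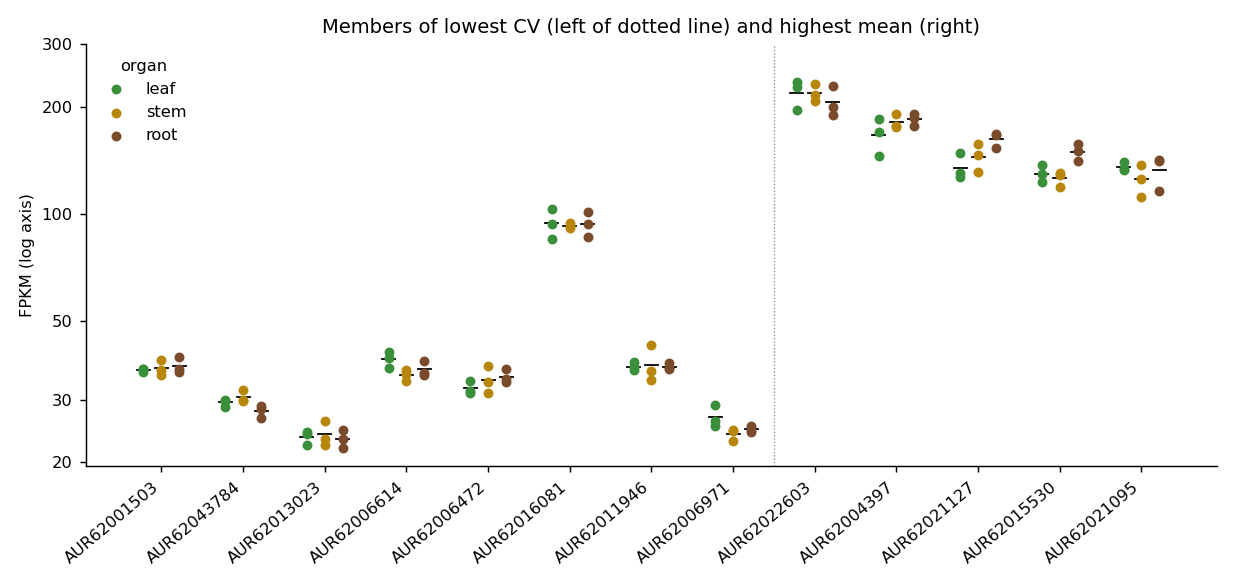
FPKM (log axis) of the 8 members of lowest CV, left of the dotted line, and of the 5 members of highest mean, right of it. Points are libraries of leaf, stem and root (n = 3 each) and black bars are organ means; AUR62001503 stays between 35.2 and 39.6 FPKM, and every leaf library of AUR62021127 and AUR62015530 lies below every root library.

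At the low end, AUR62025583 had the lowest mean of the members, 22.6 FPKM. It was at 21.6, 21.6 and 20.1 FPKM in leaf, 21.5, 24.3 and 23.0 FPKM in stem and 23.3, 22.4 and 25.8 FPKM in root, so its lowest library was just above the minimum. Its counts of 193 to 412 per library would by counting error alone give a CV of 5.98%, against 7.52% observed. AUR62030004 had a mean of 24.2 FPKM and a CV of 10.7%, with 22.2, 23.5 and 26.2 FPKM in leaf, 20.7, 25.1 and 28.6 FPKM in stem and 23.8, 26.3 and 21.2 FPKM in root.

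**Figure D2:**
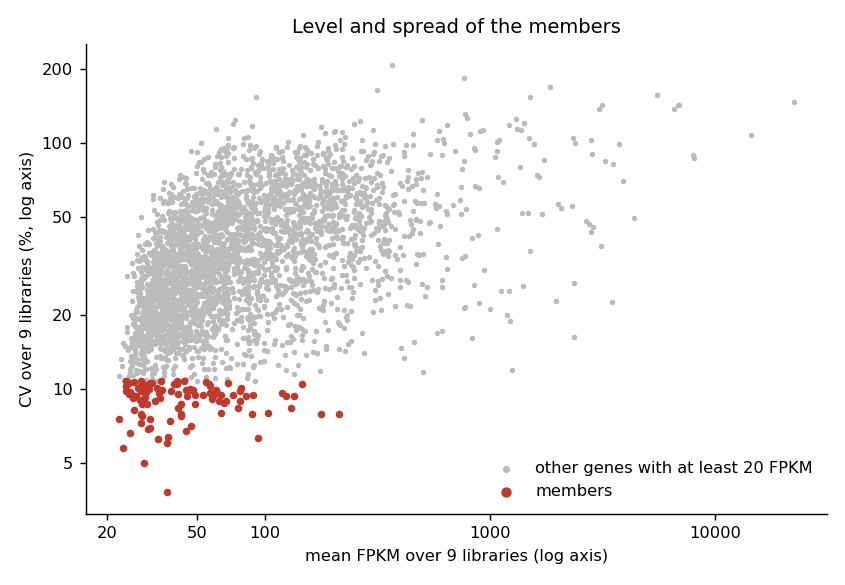
CV over the 9 libraries (%) against mean FPKM, both on log axes, for the 100 members (red) and the other 3124 genes with at least 20 FPKM in all libraries (grey). The members lie below a CV of 10.75% and at means from 22.6 to 214 FPKM, while genes of higher level reach higher CVs.

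The edge of the set was not a gap. The last members were AUR62003743 and AUR62023014, both with a CV of 10.75%, and the first genes beyond were AUR62033140 at 10.77% and AUR62021972 at 10.82%. AUR62003743 was at 26.2, 33.5 and 26.4 FPKM in leaf, 23.8, 26.6 and 32.0 FPKM in stem and 29.6, 29.3 and 28.0 FPKM in root. AUR62033140, just outside, was at 103.0, 108.6 and 95.5 FPKM in leaf, 81.3, 84.6 and 86.0 FPKM in stem and 90.7, 79.7 and 88.9 FPKM in root. Over all members the CV had a median of 9.39%, against 33.8% over the 3224 genes. The highest library exceeded the lowest by 1.12-fold to 1.47-fold in the members (median 1.34-fold) and by a median of 2.63-fold in the 3224 genes.

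Counting error made up a larger part of the members' spread than of other genes' spread. The CV expected from counting error alone had a median of 2.90% in the members and 2.78% in the 3224 genes. As a share of the observed variance it came to a median of 10.8% in the members (from 3.27% to 129%), against 0.709% in the 3224 genes. It exceeded 25% of the variance in 13 members, against 17 of the 3224 genes (0.527%). These shares follow in part from the rule, since the observed variance is what chose the members.

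Gene length was no criterion of its own and differed between the sets. It still enters the rule through the FPKM, which divides by length. At the same FPKM and library size a longer gene has more counts and so less counting error. As given above, counting error had a median share of 0.709% of the variance in the 3224 genes. Its part in the differences by length was not tested. The members had a median length of 1526 bp (quartiles 1052 and 2039 bp), against 1052 bp in the 3224 genes (quartiles 630 and 1559 bp). Of the members, 28 (28.0%) were longer than 2000 bp, against 380 (11.8%) of the 3224 genes, and 3 (3.00%) were shorter than 500 bp, against 587 (18.2%). In 4 groups of the 3224 genes by length, from shortest to longest, the members numbered 8, 17, 28 and 47 and the median CV was 42.1%, 35.8%, 32.8% and 25.4%. The median CV was thus lower in longer genes and, as given above, higher in genes of higher level. How length and level relate to each other was not tested, nor was the part of each in the CV. The shortest member was AUR62013280 at 336 bp and the longest AUR62033529 at 3613 bp. All 100 members had an AUR62 identifier, against 3096 of the 3224 genes (96.0%). Consecutive identifiers were found in 0 pairs of members. Such pairs were not counted over the 3224 genes, and nothing is read from the number.

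Differences between organs were small in the members by construction, and they went both ways. The ratio of organ means ran from 0.820 to 1.21 for leaf over root (median 1.01), from 0.810 to 1.24 for stem over root (median 0.986) and from 0.836 to 1.24 for leaf over stem (median 0.998). Over the 3224 genes the median ratios were 1.12, 1.23 and 0.918. Without stem replicate 1, the medians of stem over root and leaf over stem were 0.967 and 1.02 in the members and 1.06 and 1.08 over the 3224 genes, so that the median of leaf over stem in the 3224 genes lay above 1 rather than below it. Leaf had the highest organ mean in 39 members, stem in 28 and root in 33, against 952 (29.5%), 1450 (45.0%) and 822 (25.5%) of the 3224 genes. Without stem replicate 1 the numbers were 43, 23 and 34 members, against 1559 (48.4%), 630 (19.5%) and 1035 (32.1%) of the 3224 genes. The large share of stem among the 3224 genes thus rested on that library.

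AUR62039154 had the highest ratio of leaf over root, with 29.8, 28.0 and 29.6 FPKM in leaf, against 26.0, 24.7 and 21.2 FPKM in root, a log2 ratio of 0.28. In AUR62030142 and AUR62021290 the log2 ratio was 0.23 in both. Every leaf library of AUR62030142 (29.7, 29.8 and 26.5 FPKM) lay above every root library (24.8, 24.4 and 23.9 FPKM). In AUR62021290, leaf at 67.7, 60.5 and 75.4 FPKM overlapped root at 55.0, 58.4 and 60.6 FPKM.

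The opposite order was most marked in AUR62032158, at 27.4, 27.4 and 25.9 FPKM in leaf, 28.1, 28.0 and 29.3 FPKM in stem and 33.2, 32.6 and 32.8 FPKM in root (log2 ratio of leaf over root -0.29). The root libraries of this gene lay above all 6 leaf and stem libraries. It was the member with the largest share of variance between organs, 95.5%. AUR62016999 had a log2 ratio of -0.26, with 23.6, 21.7 and 23.2 FPKM in leaf, against 27.3, 26.9 and 27.5 FPKM in root, where the organs did not overlap.

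Between stem and root, AUR62005770 stood highest at a log2 ratio of 0.31. Its stem libraries were at 58.9, 58.9 and 66.9 FPKM, against 50.5, 48.4 and 49.9 FPKM in root. AUR62003540 had a ratio of 0.20, with 68.2, 65.1 and 55.5 FPKM in stem overlapping 54.9, 58.3 and 51.1 FPKM in root. On the other side were AUR62027681, with 45.1, 38.7 and 40.3 FPKM in stem, against 51.8, 51.0 and 50.3 FPKM in root, and AUR62035214, with 58.9, 57.0 and 49.8 FPKM in stem, against 64.5, 70.4 and 64.6 FPKM in root. Their log2 ratios were -0.30 and -0.27, and in both every stem library lay below every root library.

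Between leaf and stem, AUR62023014 and AUR62033529 had the highest log2 ratios, 0.31 in both. AUR62023014 was at 37.7, 39.9 and 37.0 FPKM in leaf, against 28.3, 29.6 and 34.2 FPKM in stem. For AUR62033529 the values were 44.4, 45.1 and 46.9 FPKM in leaf, against 33.9, 38.3 and 37.7 FPKM in stem. Neither gene's organs overlapped. The lowest ratios were those of AUR62033968 (-0.26), at 58.8, 65.3 and 59.0 FPKM in leaf, against 70.3, 78.4 and 70.3 FPKM in stem, and AUR62028349 (-0.23), at 42.7, 44.3 and 48.2 FPKM in leaf, against 47.9, 59.1 and 51.6 FPKM in stem. Leaf and stem overlapped by 1 library in AUR62028349 and did not overlap in AUR62033968.

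In some members the libraries of a pair of organs did not overlap. Every leaf library lay above every root library in 12 members and below in 20, where 28.1% and 33.5% of the 36685 genes tested for differences and 30.2% and 21.6% of the 3224 genes did so. For stem against root the numbers were 7 above and 11 below (19.5% and 22.6% of all tested genes, 21.7% and 15.2% of the 3224), and for leaf against stem 12 above and 6 below (16.1% and 13.1% of all tested genes, 12.25% and 7.85% of the 3224). Without stem replicate 1 they were 10 above and 23 below for stem against root (26.6% and 26.9% of the 3224), and 26 above and 10 below for leaf against stem (26.7% and 11.8% of the 3224), where 2 stem libraries overlap less readily than 3. The rule used these values, and nothing is read from the counts.

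The share of a member's variance over the 9 libraries that lay between organs had a median of 32.7% (from 1.14% to 95.5%), against 43.8% for the 3224 genes, where 2 of 8 degrees of freedom (25%) lie between organs. It exceeded 50% in 27 members, against 1423 of the 3224 genes (44.1%), and 75% in 7 members, against 723 (22.4%). Without stem replicate 1, where 2 of 7 degrees of freedom (28.6%) lie between organs, the median was 41.5% in the members and 62.8% in the 3224 genes. The share then exceeded 50% in 41 members, against 2024 of the 3224 genes (62.8%), and 75% in 13 members, against 1178 (36.5%). The lowest shares were 1.14% in AUR62016081 and 1.24% in AUR62011946, whose 9 values are given above.

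No member was called between organs with edgeR's quasi-likelihood test on TMM-scaled counts (adjusted p below 0.05 over 36685 genes). The calls numbered 0 of 100 in each comparison, where 37.7% of all tested genes were called for leaf against root, 21.8% for stem against root and 12.2% for leaf against stem. The shares over all genes depended on single libraries, while edgeR called 0 members without any 1 library and with the replicate block. Without stem replicate 1 the shares were 49.3%, 26.5% and 13.8%. For leaf against root the share was 26.5%, 31.8% and 27.6% without leaf replicate 1, 2 or 3. It was 26.4%, 25.2% and 28.7% without root replicate 1, 2 or 3, and 36% and 39.1% without stem replicate 2 or 3. For stem against root the share was 10.3%, 9.45% and 13.3% without root replicate 1, 2 or 3. For leaf against stem it was 3.75% without leaf replicate 1, 4.37% without leaf replicate 3, 6.64% without stem replicate 2, 7.64% without root replicate 1 and 6.67% without root replicate 2. The main test did not pair the organs of a pool. With the replicate block, which does, the shares were 32.1% for leaf against root, 14.9% for stem against root and 6.76% for leaf against stem. An unadjusted p below 0.05 was reached by 0 members in any of the 3, and limma on log2(FPKM + 1) called 0 as well. DESeq2 called 3, 1 and 2 members, where it called 45.1%, 32.0% and 21.6% of all genes with a p-value. The members had been chosen on these libraries, so the counts are a description from which nothing is read. The standard error of a member's log2 fold change had a median of 0.172.

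Seen by library, the members held close to their own means, which restates the rule that chose them for low spread. Their median log2 deviation from the gene's own mean lay between -0.039 (stem replicate 3) and 0.024 (root replicate 3). Among all 3224 genes the same median lay between -0.28 (root replicate 2) and 0.34 (stem replicate 1). Stem replicate 1 was the highest library for 22 members and the lowest for 14, against 47.9% and 11.9% of the 3224 genes. Stem replicate 3 was the highest for 3 members and the lowest for 20, against 4.0% and 10.5% of the 3224 genes. The rule used these values, and nothing is read from the numbers of members.

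**Figure D3:**
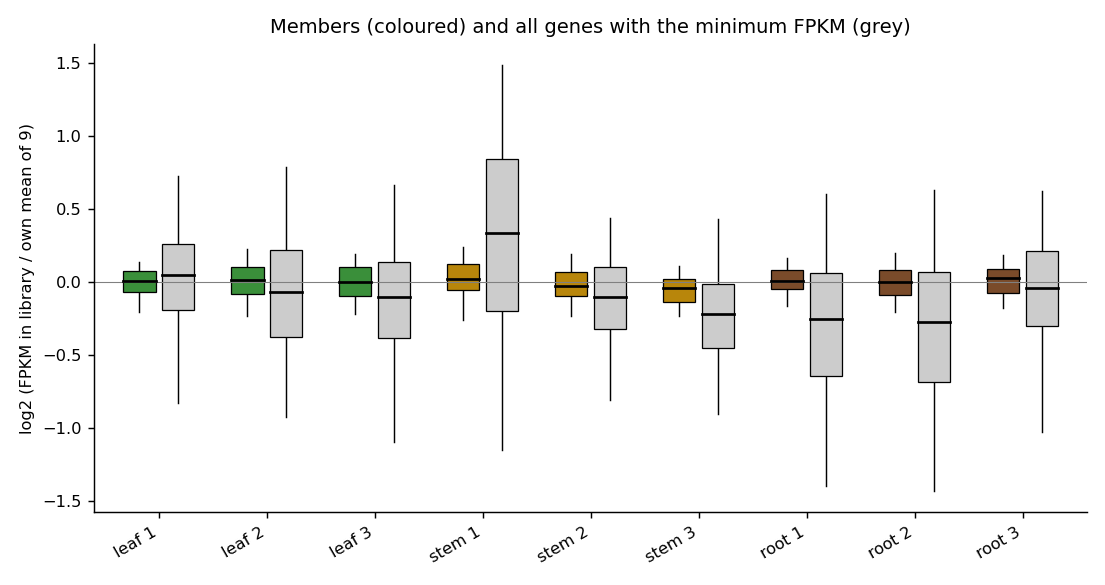
log2 of the FPKM in a library over the gene's own mean of 9 libraries, for the 100 members (coloured by organ) and all 3224 genes with at least 20 FPKM (grey). Boxes span the quartiles with the median as a line, and whiskers reach from the 5th to the 95th percentile. The members' medians lie between -0.039 and 0.024, those of the 3224 genes between -0.28 and 0.34. The narrow boxes of the members follow from the rule.

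How far stability carries over to a library that did not choose the genes was read by applying the rule to 8 libraries and looking at the ninth. Other libraries of its organ were among the 8, and its FPKM kept the deposited scaling. The left-out library was thus not fully independent of the choice. Without stem replicate 1, the rule gave 100 genes of which 46 were members. In each of the other 8 cases it gave 81 to 94 members. Of the members, 39 were chosen in all 9 cases and 75 in at least 7.

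In the left-out library, 80 to 98 of the 100 chosen genes lay within 1.25-fold (0.8 to 1.25 times) of their mean in the other 8, for every library except stem replicate 1. Over all genes that reached the minimum in the 8, the share was 36.3% to 60.6%. The most were in leaf replicate 1, with 98 genes (58.1% of all genes at the minimum), and the fewest in leaf replicate 2, with 80 (46.7%). In stem replicate 1 only 44 of the 100 lay within 1.25-fold, against 23.9% of all genes at the minimum. The 100 genes chosen without it had a median CV of 7.71% over the 8 libraries, yet their median absolute log2 deviation in stem replicate 1 was 0.35, their ratio to the mean of the 8 ran from 0.471 to 2.24, and 12 fell below 20 FPKM there. Elsewhere the median absolute deviation was 0.094 to 0.16.

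**Figure D4:**
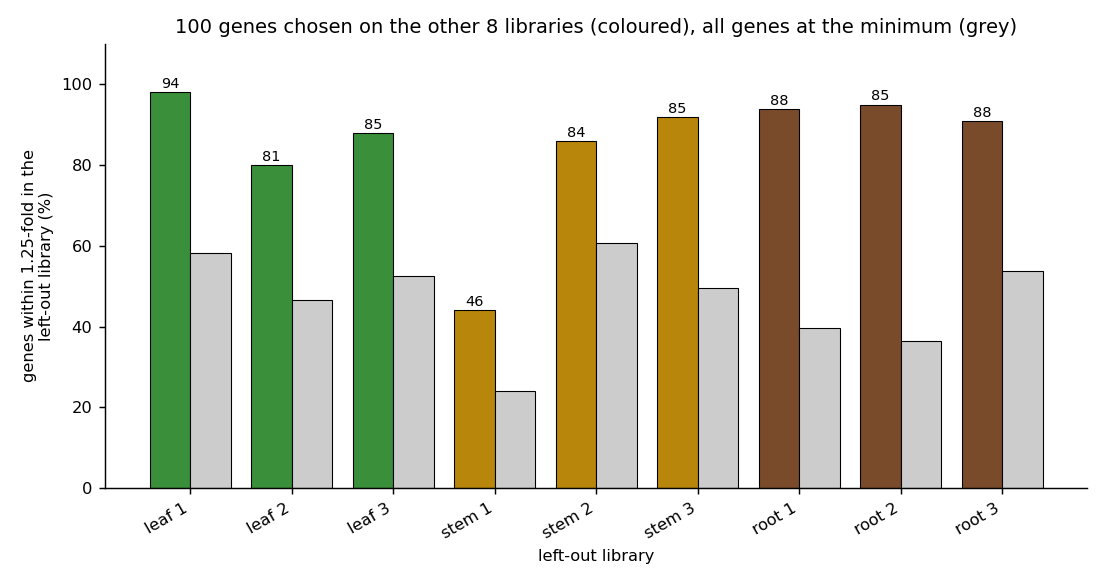
Percent of genes whose FPKM in a left-out library lay within 1.25-fold of their mean in the other 8 libraries, for the 100 genes chosen on those 8 (coloured by organ) and all genes at the minimum in the 8 (grey). Numbers above the bars count the members among the 100 chosen; stem replicate 1 has the lowest bars, 44% and 23.9%, and the fewest members, 46.

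Membership also rested on the scale. The library size behind the deposited FPKM, which follows from the count divided by the FPKM, was 0.773 to 0.857 times the total count in leaf, 0.840 to 1.10 times in stem and 1.10 to 1.21 times in root. Leaf and root did not overlap in this ratio. Relative to each other, these sizes were within 0.982 to 1.02 times those from TMM factors, a scaling that assumes that most genes do not differ between libraries. With TMM factors 93 members were chosen again, and with the similar RLE factors 91. Upper-quartile factors kept 60.

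Scaled by the total count, 1 member was among the 100 genes of lowest CV, and on the TPM scale, where each library's values sum to the same number, 0 were. The members' median CV was 19.5% on total counts and 25.5% in TPM, against 33.2% and 33.3% for the same 3224 genes. On both scales each of the 100 members was below the median CV of the 3224 genes, in TPM with a highest member at 33.0%. The tenth of lowest CV, 322 genes, held 25 members on total counts and 0 in TPM. Because the members were chosen for steady FPKM, their CV on these scales goes largely with the change of scale between libraries. Nothing is read from their place below the median. The median log2 ratio of leaf over root in the members was 0.0091 in FPKM, 0.020 with TMM factors, 0.053 with RLE factors, -0.16 with upper-quartile factors, -0.54 on total counts and -0.68 in TPM. The median over the 3224 genes moved along with it, from 0.17 in FPKM to -0.37 on total counts and -0.51 in TPM. When edgeR was run on total counts alone, 52 members were lower in leaf than in root and 0 were higher, where 36.0% of all tested genes were lower. The members were chosen on the sizes behind the FPKM, so a shift in 1 direction on total counts follows by construction. Nothing is read from the 52 calls.

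The one gene chosen on total counts as well was AUR62030142, whose leaf libraries all lay above its root libraries in FPKM. Its CV was 9.22% in FPKM, 8.98% with TMM factors, 10.2% with RLE factors, 4.80% with upper-quartile factors, 12.1% on total counts and 19.4% in TPM. AUR62001503, the lowest in FPKM, had a CV of 19.3% on total counts. AUR62032158 had the highest of the members on that scale, 26.4%.

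The members held 0.611% ± 0.037 of all counts in leaf (SD, n = 3), 0.755% ± 0.093 in stem and 0.898% ± 0.041 in root. The 3 leaf libraries lay below the 3 root libraries, and stem replicate 1, at 0.648%, lay among the leaf libraries. This order follows by construction. The rule chose genes of steady FPKM, so their share of counts goes with the library size behind the FPKM over the total count. As given above, that ratio was lower in leaf than in root, and in stem replicate 1 it lay within the range of leaf. Nothing is read from the order. As a general limit, fewer cells that express a gene and less RNA per cell cannot be told apart in bulk samples such as these. The 10 most abundant genes of each library held 6.60% ± 0.48 of counts in leaf (n = 3), 6.09% ± 1.27 in stem and 4.40% ± 1.27 in root. The part of abundant genes in the ratio of library size to total count was not tested.

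A ratio of genes within a library does not depend on any scaling, though the choice of the genes does. Over pairs of members, the SD of the log2 ratio across the 9 libraries had a median of 0.182, and over pairs of the 100 genes chosen on total counts it was 0.200. Pairs of a member with a different gene of the set chosen on total counts had a median of 0.296, and pairs among 162 genes spaced evenly along the CV ranking of the 3224 genes one of 0.620. The low values within each set follow from the rule, which chose both for low spread. The geometric mean FPKM of the members was 0.761 ± 0.029 times that of the set chosen on total counts in leaf, 0.883 ± 0.098 times in stem and 1.08 ± 0.05 times in root. Its values were 0.730, 0.787 and 0.767 in leaf, 0.770, 0.933 and 0.946 in stem and 1.09, 1.12 and 1.03 in root. Leaf and root did not overlap, and stem replicate 1 was again at the level of leaf. The ratio follows by construction the ratio of the scalings that chose the sets. Relative to their geometric mean over the 9 libraries, the sizes behind the FPKM over the total counts were 0.791 to 0.876 in leaf, 0.859 to 1.12 in stem and 1.13 to 1.24 in root. Nothing is read from it beyond that, and it was not tested.

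**Figure D5:**
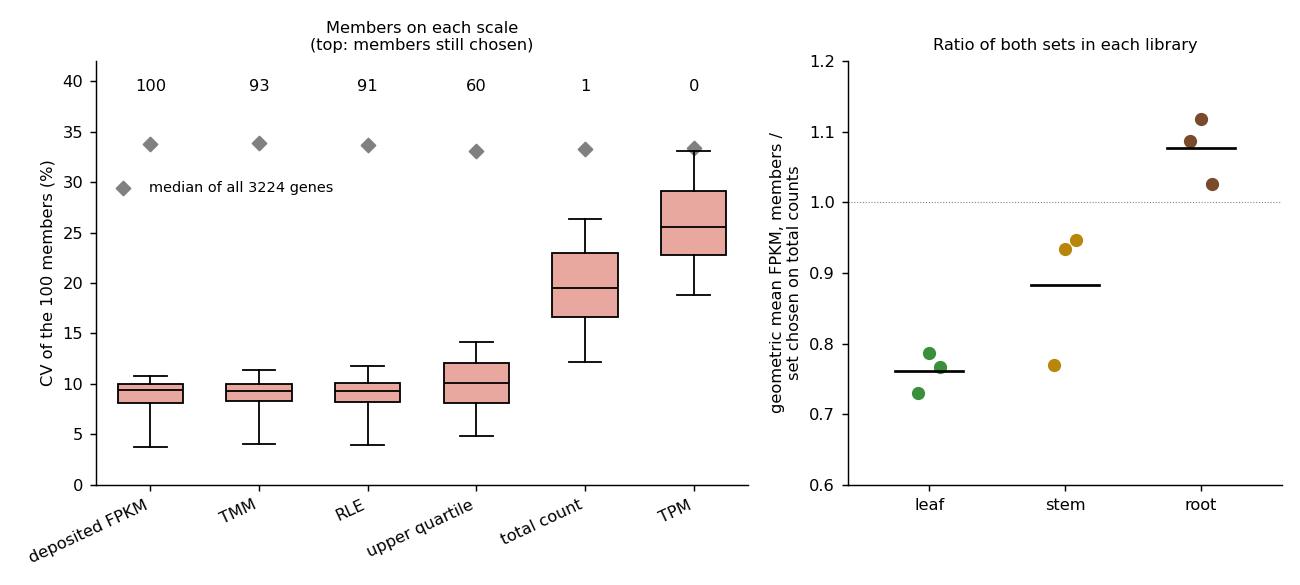
Left, CV (%) of the 100 members on 6 scales, with boxes at the quartiles, whiskers at the lowest and highest member and diamonds at the median of all 3224 genes; the numbers on top, 100, 93, 91, 60, 1 and 0, count the members that the rule chose on each scale. Right, geometric mean FPKM of the members over that of the 100 genes chosen on total counts, with a point per library and bars at organ means, from 0.761 in leaf to 1.08 in root.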

How the data were processed

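The deposited tables hold raw read counts and FPKM for 54238 genes, per the file headers. The labels' protocols name a TruSeq RNA kit and 3 µg of RNA per library. The submitters' processing notes name TopHat2 2.0.12 and Bowtie2 2.0.6. Not given in the sources used here are the counting tool, the build, the use of strand and the treatment of multiple matches. Overlapping, antisense and near-identical genes therefore have uncertain values.

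Gene lengths and the library sizes behind the FPKM were solved from count divided by FPKM, which gave whole lengths within 0.01 bp for 100.0% of 46576 genes with a count. Counting error was taken as Poisson. The count test was edgeR 4.0.16 under R 4.3.3 (filterByExpr, TMM factors, 1 robust quasi-likelihood model over all 9 libraries, Benjamini-Hochberg adjustment over 36685 genes; all 100 members passed the filter). DESeq2 1.42.0, limma 3.58.1 with pseudocounts of 1 and 0.1, other scalings (RLE, upper quartile, total count, the library sizes of the FPKM, TPM), other minima and measures of spread, a replicate block and leaving out each library were alternatives. The procedures were tested on simulated data. For the rule, the simulated stable genes varied far less than all others, whereas the CVs of these data have no gap at the edge. That test therefore does not bear on which genes are members here. Replicate numbers were taken as pairs in the replicate block only, because, per the labels' protocols, each pool of plants gave all 3 organs. The main edgeR model, DESeq2 and limma left the pairs out. Same-numbered libraries deviated from their organ means with correlations over genes of only -0.139 to 0.097 (9 pairs).

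The members, the alternatives and the rule for named genes were chosen with earlier results of these data known. That rule took the members with the lowest CV, the highest and lowest mean, the most extreme organ ratios and shares of variance between organs, those at the edge, and any called by edgeR, of which there were 0. The ratios between sets, the lengths shared by members and the organ values without stem replicate 1 were added after the data were seen.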

Additional observations from a re-analysis of the deposited data

How the results depend on the processing

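The 100 members were chosen again in part only under several alternatives: 60 with upper-quartile factors, 1 on total counts, 0 in TPM, 39 with a minimum of 10 FPKM, 26 with a minimum of 50 FPKM and 18 with no minimum above 0 FPKM. The 26 are by construction all members that reach 50 FPKM in all 9 libraries. The SD of log2(FPKM + 1) or of log2(FPKM + 0.1) in place of the CV kept 95, and the ratio of highest to lowest library 83. Leaving out a library kept 46 (stem replicate 1) to 94. The members' median CV, 9.39%, was 19.5% on total counts, 25.5% in TPM and 8.98% to 9.60% without a library. Their median log2 ratio of leaf over root was 0.0091, and 0.053 with RLE factors, -0.16 with upper-quartile factors, -0.54 on total counts, -0.68 in TPM and -0.0085 to 0.022 without a library. For stem over root it was -0.021, and 0.00083 with TMM factors, -0.074 with upper-quartile factors, -0.25 on total counts, -0.39 in TPM and -0.048 (without stem replicate 1) to -0.00095 (without stem replicate 3). For leaf over stem it was -0.0036, and 0.022 with RLE factors, -0.11 with upper-quartile factors, -0.32 on total counts, -0.31 in TPM and -0.016 to 0.036 without a library. Calls among members numbered 0 in each comparison, and for leaf against root 2 with upper-quartile factors, 52 on total counts and 3 with DESeq2, for stem against root 1 on total counts and 1 with DESeq2, and for leaf against stem 2 with DESeq2. They were 0 in all comparisons with the replicate block, which moved no call among members, and 0 without any 1 library. Over all genes the block called 32.1% for leaf against root, 14.9% for stem against root and 6.76% for leaf against stem. Without the block the shares were 37.7%, 21.8% and 12.2%. The shift of the members on total counts follows by construction from the scaling that chose them. The causes of the other changes were not tested. Depth limits members with few counts, such as AUR62001503, whose spread was within counting error.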
